A study of Mus musculus with 2 samples.

Results

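The RNA levels of 8 transcription factor genes were described in the endothelial cells (ECs) of juvenile mouse long bone. The genes were Sox17, Sox18 and Sox7 (the SoxF group), Nr2f2, Mecom, Erg, Fli1 and Prox1. They were listed by name, as regulators of arterial, venous and lymphatic identity, with earlier results of these data known. All 8 of them, out of 28380 genes listed in the count tables, had counts in ECs of both libraries. The question was in which kinds of EC each gene is found, and how its level differs when Dach1, itself a transcription factor gene, is overexpressed.

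Single-cell RNA sequencing (scRNA-seq) was performed on femur and tibia cells of C57BL/6 mice at postnatal day 30, after magnetic depletion of lineage-positive, CD45+ and CD117+ blood cells. There were 2 libraries, 1 per genotype, and each pooled 2 mice, male and female. The Control mice had the genotype Dach1OE +/f without Cre, so that their transgene was present but not activated. The Dach1OE mice had the genotype Apj CreERT2 - Dach1OE +/f, in which a tamoxifen-inducible Cre driven by Aplnr (Apj), an endothelial receptor gene of bone capillaries, switches the Dach1 transgene on. All mice received tamoxifen in the first days after birth, and the cross also carried the R26-mT/mG reporter allele.

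SoxF factors bind DNA through a high-mobility-group (HMG) box and act early in blood and lymphatic vessel formation. Sox17 is required for arterial identity, Sox18 for the first step of lymphatic specification, and Sox7 shares functions with both. Nr2f2 encodes COUP-TFII, an orphan nuclear receptor that maintains venous identity and represses Notch-dependent arterial genes, and that works with Prox1, the master regulator of lymphatic endothelium. Mecom encodes the zinc finger factor Evi1, known from haematopoietic stem cells and from arterial endothelium. Erg and Fli1 are ETS factors that keep the endothelial programme active in vessels of every kind.

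As 1 library per genotype gives no replicate, no test between genotypes was possible, and none was made. Levels are UMIs of a gene in 1000000 UMIs of the same cells (CPM), where a UMI stands for 1 captured RNA molecule. Values in square brackets after a level, a share or a log2 ratio are 95% intervals that cover counting error only (exact Poisson, exact binomial, and conditional binomial, respectively). A difference outside such an interval may still lie within the spread between mice, which was not measured. CPM depends on transcript length and capture, so levels are compared between cells and not between genes.

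The tables held 28720 Control and 32028 Dach1OE cells, and 1049 cell numbers occurred in both. With 500 to 6000 genes and under 25% mitochondrial UMIs, 26466 and 29317 cells remained, of which 8792 and 9100 were ECs with a median of 2723.5 and 2720.5 UMIs. A cell counted as endothelial with at least 5 of 10 endothelial markers and no other class. ECs were then placed in gates by markers that include none of the 8 genes: sinusoidal (5236 Control and 3361 Dach1OE cells), metaphyseal (748 and 858), arterial (214 and 765), remodelling (106 and 53), tip-like (16 and 85), proliferating (396 and 623) and lymphatic (29 and 8). ECs of several gates (410 and 500) and of none (1637 and 2847, ungated) were kept apart. The numbers of cells per gate are not read as a result, because the gate genes themselves differ between the libraries. Some genes held out of the gates as checks followed the names. The arterial connexin gene Gja5 stood at 643 and 994 CPM in the arterial gate against 1.55 and 3.81 in the sinusoidal gate. Flt4 (VEGFR3) stood at 871 and 786 CPM in the sinusoidal against 98.3 and 65.7 in the arterial gate. Others did not follow them. Esm1, a check of metaphyseal ECs, stood at 150 CPM in the arterial against 32.1 CPM in the metaphyseal gate of the Control library. Aplnr, a check of remodelling ECs, stood at 331 and 458 CPM there against 564 and 560 CPM in all ECs. The other checks of that gate followed its name. Cav1 stood at 1741 and 2619 CPM there against 215 and 475 CPM in all ECs, and Edn1 at 361 and 254 CPM against 21.4 and 39.0 CPM.

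Dach1 matched the labels. In all ECs it stood at 5.16 CPM in the Control library (151 UMIs) and 199.7 CPM in the Dach1OE library (5932 UMIs), and in cells thinned to 1000 UMIs it was seen in 0.488% and 17.3% of ECs. It was higher in the Dach1OE library in the sinusoidal gate (3.21 and 192 CPM) as in the arterial gate (10.1 and 235 CPM). The Control level was higher in remodelling ECs, at 48.1 CPM [27.5 to 78.1] on 16 UMIs, where the Dach1OE library had 130.01 CPM [80.5 to 199]. It was also higher in tip-like ECs, at 55.6 CPM [11.5 to 163] on 3 UMIs against 339 CPM [275 to 414]. In the lymphatic gate Dach1 had 0 UMIs in both libraries, with the upper limits given for Sox17 below. In the Dach1OE library that limit is near the sinusoidal Dach1 level, so absence is not shown.

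The SoxF genes come first, and the DNA-binding part of 2 of them is shown since Sox17 and Sox18 differed in their levels between gates. The 120 coding bases from 2 codons before the core of the HMG box are interrupted by an intron in both genes (GRCm38, transcripts of GENCODE vM21). Capitals mark the positions at which Sox17 and Sox18 are not the same:
Sox17, chr1:4492655-4493205, minus strand: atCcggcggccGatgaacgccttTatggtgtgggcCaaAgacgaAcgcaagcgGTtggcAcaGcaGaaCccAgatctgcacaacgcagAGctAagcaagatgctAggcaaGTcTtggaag
Sox18, chr2:181670983-181671287, minus strand: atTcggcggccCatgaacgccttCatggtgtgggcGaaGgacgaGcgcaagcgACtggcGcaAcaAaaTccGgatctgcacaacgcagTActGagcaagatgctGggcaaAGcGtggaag
Both genes hold the same base at 100 of the 120 positions (83.3%). Over whole transcripts their longest exact shared run is 29 bases.

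Sox17 (chr1:4490931-4497354, minus strand) was highest in arterial ECs of both libraries. In the Control library it stood at 662 CPM [603 to 725] in the arterial gate, 138 CPM [124 to 154] in the metaphyseal gate and 75.3 CPM [71.4 to 79.5] in the sinusoidal gate. In the Dach1OE library the values were 788 CPM [754 to 822], 154 CPM [140.3 to 168] and 80.2 CPM [74.99 to 85.7] in the same gates. The order of these gates was thus the same in both libraries, with intervals that did not overlap. Arterial levels were 8.78 times the sinusoidal ones in the Control library and 9.82 times in the Dach1OE library. The tip-like gate, set by Pgf, Nos2 and Cxcr4, followed with 185 and 234 CPM, but with only 10 UMIs in the Control library its interval overlapped that of the metaphyseal gate. Proliferating ECs had 102 and 136 CPM, and remodelling ECs 45.1 and 161 CPM. No Sox17 UMI was seen in the lymphatic gate, where a count of 0 allows up to 37.6 CPM in the Control and 187 CPM in the Dach1OE library (3 counts).

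**Figure D1:**
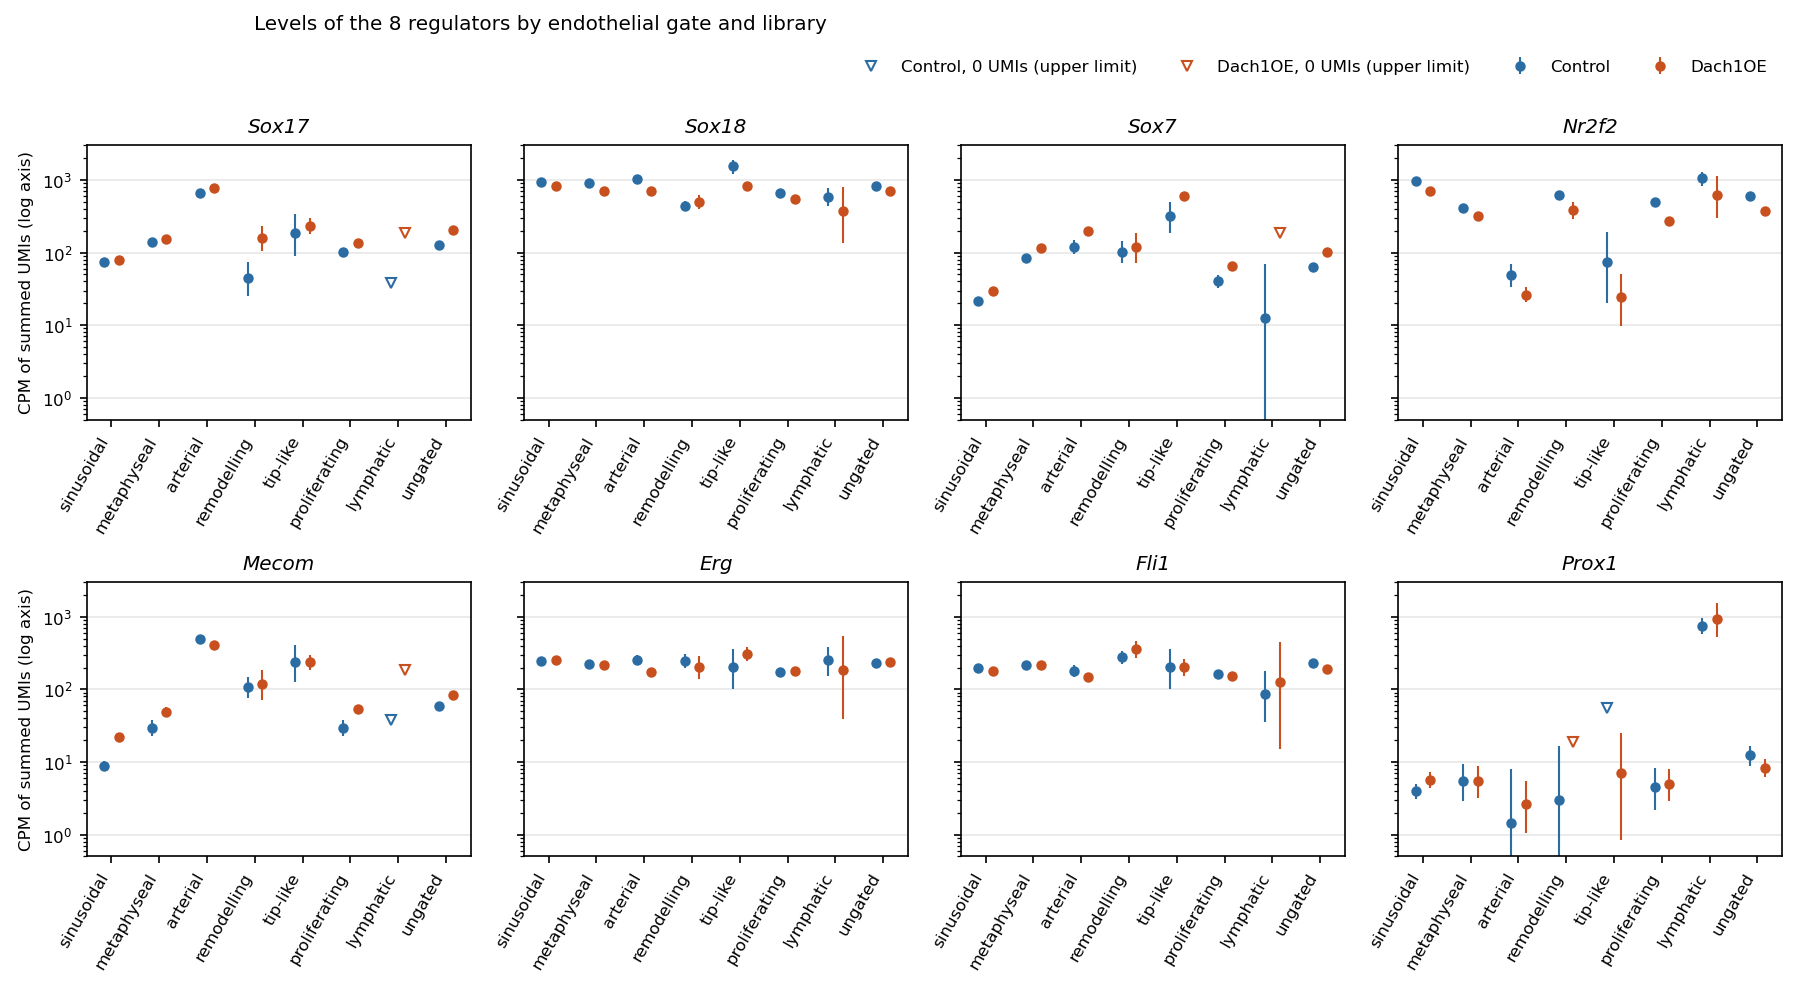
CPM of each of the 8 genes (log axis) in the EC gates of the Control and Dach1OE libraries, with bars for the 95% Poisson interval and open triangles at the level of 3 counts where no UMI was seen. Sox17, Sox7 and Mecom stand higher in the arterial than in the sinusoidal gate, Nr2f2 stands lower, Erg and Fli1 have UMIs in each gate, and Prox1 is high in the lymphatic gate alone.

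Sox7 (chr14:63943673-63950732, plus strand) followed Sox17 but peaked elsewhere. The tip-like gate had 315 CPM [184 to 505] in the Control library from 17 UMIs and 595 CPM [509 to 691] in the Dach1OE library from 170 UMIs. Arterial ECs had 118 CPM [94.2 to 147] and 201 CPM [185 to 219], metaphyseal ECs 84.5 CPM [73.3 to 96.98] and 114 CPM [103 to 127], and sinusoidal ECs 21.8 CPM [19.7 to 24.1] and 29.3 CPM [26.2 to 32.7]. Sox7 was therefore lowest in the sinusoidal gate among gates with over 50 cells, and the tip-like level was above the arterial one in both libraries. Arterial and remodelling ECs could not be ordered in the Control library, since the 34 UMIs of the remodelling gate gave 102 CPM [70.8 to 143].

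Sox18 (chr2:181669836-181671640, minus strand) had no such pattern. The sinusoidal, metaphyseal and arterial gates had 941, 919.7 and 1035 CPM in the Control library and 814, 698 and 697 CPM in the Dach1OE library. Its arterial to sinusoidal log2 ratio was 0.14 [0.03 to 0.24] in the Control library and −0.22 [−0.30 to −0.15] in the Dach1OE library, and both values were small beside those of Sox17. In Y-linked (male) cells of the Control library the ratio was −0.03, so that the signs of the libraries differed over all cells and in Xist (female) cells (0.26 and −0.21) but not there. Sox18 was lowest in the remodelling gate of the Control library (442 CPM [374 to 519.6]), and lower in proliferating (661 and 545 CPM) than in sinusoidal ECs in both libraries. Of the SoxF genes it was the only one with UMIs in the lymphatic gate of both libraries (47 and 6).

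Mecom (chr3:29951296-30548008, minus strand) was the most arterial of the 8 genes by ratio. In the Control library it stood at 488 CPM [438 to 543] in the arterial, 29.6 CPM [23.1 to 37.3] in the metaphyseal and 8.90 CPM [7.58 to 10.4] in the sinusoidal gate. In the Dach1OE library these gates had 408 CPM [384 to 433], 48.9 CPM [41.4 to 57.3] and 21.9 CPM [19.2 to 24.8]. Arterial ECs thus had 54.9 times the sinusoidal level in the Control library and 18.6 times in the Dach1OE library. The Control sinusoidal level, over which the larger fold is taken, is below the 17.1 CPM of Dach1OE fibroblasts and so within the range found outside the endothelium. Tip-like ECs had 241 and 238 CPM and remodelling ECs 108 and 118 CPM, both between the arterial and the metaphyseal level. The lymphatic gate had 0 Mecom UMIs in both libraries, with the same upper limits as for Sox17. Because intronic reads were counted, reads of the antisense gene Mecomos, which lies within Mecom and had 38 and 106 UMIs of its own in ECs, cannot be told apart where counting ignores strand.

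Nr2f2 (chr7:70351944-70366735, minus strand) had the opposite order. In the Control library it stood at 965 CPM [951 to 979.8] in the sinusoidal, 406 CPM [381 to 432] in the metaphyseal and 49.1 CPM [34.02 to 68.7] in the arterial gate, the last from 34 UMIs. In the Dach1OE library the values were 710.3 CPM [695 to 726], 319.7 CPM [300.1 to 340.2] and 26.5 CPM [20.6 to 33.4]. Arterial ECs had 19.6 times less Nr2f2 RNA than sinusoidal ECs in the Control library and 26.9 times less in the Dach1OE library. The lymphatic gate had 1052 CPM [839 to 1303] in the Control library, within the range of the sinusoidal level, and 10 UMIs in the Dach1OE library. Tip-like ECs, with 4 and 7 UMIs, had intervals that overlapped those of arterial ECs. Remodelling ECs had 626 and 384 CPM. This gate had a summed level of 1269 and 1703 CPM of 6 smooth muscle and pericyte markers, of which Tagln alone made 1203 and 1176, whereas Acta2 stood at 21.1 CPM in the Control and 433 CPM in the Dach1OE library and Myh11 at 0 and 37.1 CPM. In mural cells themselves that sum was 35901 and 33144 CPM. The 7 stromal markers summed to 974 and 594 CPM in the remodelling gate, mostly Lepr (499 and 179.5) and Kitl (451 and 409), against 9486 and 7169.9 CPM in stromal cells. Mural cells carried Nr2f2, and the part of mural and stromal RNA in the remodelling values was not tested.

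Mecom and Nr2f2 were at the ends of the arterial to sinusoidal order, and for this pair the 250 bases before an annotated start are given (RefSeq, GRCm38.p6, strand of the gene). Mecom has a pair of such starts, both inside the annotated span of the gene. The more upstream one is shown, cut to the 187 bases that overlap no exon of Mecom. Capitals mark the core GGAA of ETS factors such as Erg and Fli1, read on both strands as GGAA or TTCC:
Nr2f2, chr7:70366747-70366996, minus strand: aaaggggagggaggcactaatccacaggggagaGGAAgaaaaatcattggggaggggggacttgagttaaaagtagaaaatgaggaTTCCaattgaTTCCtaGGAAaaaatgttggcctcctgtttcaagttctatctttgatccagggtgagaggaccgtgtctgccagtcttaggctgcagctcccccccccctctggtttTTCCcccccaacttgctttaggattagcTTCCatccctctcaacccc
Mecom, chr3:30509823-30510009, minus strand: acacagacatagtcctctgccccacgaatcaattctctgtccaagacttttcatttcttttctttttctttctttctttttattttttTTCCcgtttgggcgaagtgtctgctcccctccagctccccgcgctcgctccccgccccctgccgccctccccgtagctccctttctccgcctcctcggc
The Nr2f2 window held 6 matches and the upstream Mecom window 1. The other Mecom window (chr3:30013205-30013454), which overlaps an exon of Mecom and is not shown, held 4. Such a short core is common, as 93.4% of 32851 promoter windows of 250 bases held at least 1, with a mean of 2.91. Neither window shown held the SOX core ACAAT (27.7% of windows), the RBPJ core TGGGAA (21.6%) or the nuclear receptor core AGGTCA (14.0%) on either strand, and of these motifs TGGGAA contains GGAA. The other Mecom window held AGGTCA at 1 place. Windows were at hand for Prox1, Mecom, Nr2f2 and Erg, 4 of the 8 genes.

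Prox1 (chr1:190118035-190170714, minus strand) was high in the few lymphatic ECs and low elsewhere. The lymphatic gate had 752 CPM [573 to 967] in the Control library (60 UMIs in 29 cells) and 934 CPM [523 to 1540.5] in the Dach1OE library (15 UMIs in 8 cells). The sinusoidal gate had 3.98 and 5.63 CPM and the arterial gate 1.44 and 2.65 CPM, from 1 and 7 UMIs. After the lymphatic gate the highest level was that of the mixed gate, at 23.2 and 16.2 CPM. Prox1 is thus a check of the lymphatic gate, which used Lyve1, Mmrn1, Ccl21a, Pdpn and Reln and not Prox1.

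Erg and Fli1, the pan-endothelial pair, had no gate without UMIs in either library. Erg (chr16:95359169-95586593, minus strand) stood at 249 CPM [242 to 256], 226 CPM [207 to 246] and 253 CPM [217 to 293] in the sinusoidal, metaphyseal and arterial gates of the Control library, so that the sinusoidal and arterial gates could not be told apart. In the Dach1OE library the values were 254 CPM [245 to 264], 220.3 CPM [204 to 237] and 172 CPM [156 to 188], and there the arterial gate was the lower one. Fli1 (chr9:32422204-32542861, minus strand) had 197, 214 and 179 CPM in the Control and 178, 215 and 150.4 CPM in the Dach1OE library. Fli1 was highest in the remodelling gate of both libraries (279.7 CPM [226 to 343] and 359 CPM [273 to 464]), intervals above those of the arterial gate (179 CPM [149 to 214] and 150.4 CPM [136 to 166]). In the Control library the remodelling interval overlapped that of the metaphyseal gate, so the top rank there is by level only. Erg was lowest in proliferating ECs of the Control library (171 CPM [155 to 189.6]).

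Over all genes with at least 50 UMIs in the arterial and sinusoidal gates together, 8.92% of 11279 genes were past 2-fold higher in the arterial gate of the Control library and 15.6% past 2-fold lower. Of the 8 genes, Sox17, Sox7 and Mecom were past it upward and Nr2f2 and Prox1 downward. In the Dach1OE library the shares were 8.08% and 11.3% of 10905 genes, and the same genes were past 2-fold in the same directions. Marker sums of other cells differed between these gates too. The stromal markers summed to 548 and 435 CPM in the arterial against 116 and 97.5 CPM in the sinusoidal gate (Control and Dach1OE). Pdgfra, a member of that sum, went the other way, at 2.89 and 1.13 CPM against 3.81 and 11.4 CPM. The other stromal markers were not taken apart in these gates, so a higher sum need not be stromal RNA. For smooth muscle and pericyte markers the sums were 150 and 244 CPM against 80.2 and 142 CPM. Their part in the ratios was not tested. The log2 ratio of Sox17 was 3.13 [2.98 to 3.29] in the Control and 3.30 [3.18 to 3.41] in the Dach1OE library, and that of Nr2f2 −4.30 [−4.83 to −3.81] and −4.75 [−5.11 to −4.41]. For Mecom it was 5.78 [5.50 to 6.06] and 4.22 [4.02 to 4.43], intervals that did not overlap. Prox1 rests on 1 arterial UMI in the Control library, and its interval there takes in 0 (−1.46 [−6.79 to 1.06]). In the Dach1OE library its ratio of −1.09 also rests on few arterial UMIs. It fell short of 2-fold with looser gates (−0.47) and with equal weight per cell (−0.42).

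The 4 genes with the steepest ratios kept their direction in cells of either sex. A cell was read as female by Xist without a Y-linked UMI, and as male by any of 4 Y-linked genes without Xist. This separates the mice of a pool by sex without making them replicates. Of 8792 Control ECs, 2770 were read as female and 2151 as male, and of 9100 Dach1OE ECs 2811 and 2102. The other ECs had no sex and were left out. Sox17 had arterial to sinusoidal log2 ratios of 3.17 in Xist and 3.26 in Y-linked cells of the Control library and of 3.27 and 3.48 in those of the Dach1OE library. Sox7 had 2.11 and 3.09, then 2.501 and 3.15, the Control values on 23 and 27 arterial UMIs. For Nr2f2 the ratios were −3.82 and −4.19, then −4.69 and −4.83, the Control values on 15 and 8 arterial UMIs. The smaller Mecom ratio of the Dach1OE library was there in both sexes, at 4.16 and 4.36 against 5.90 and 5.91.

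**Figure D2:**
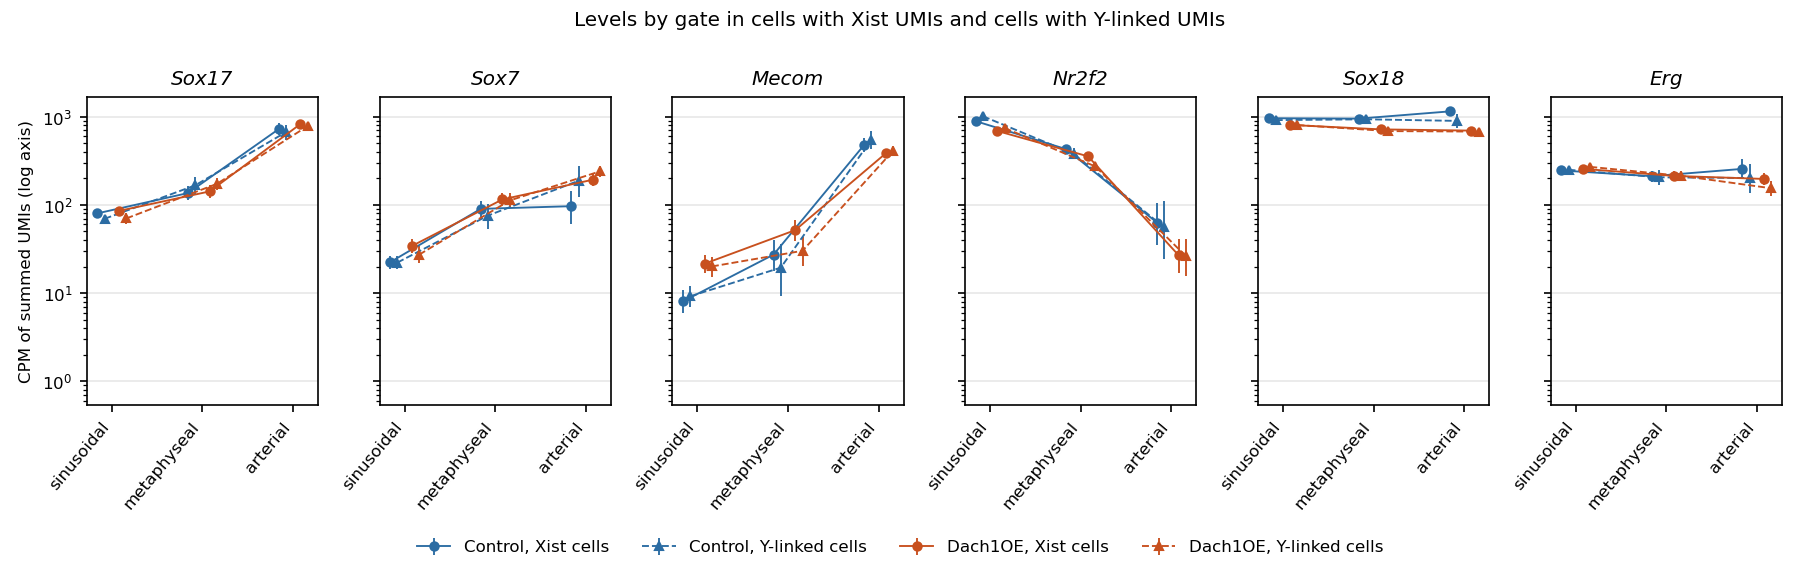
CPM (log axis) of Sox17, Sox7, Mecom, Nr2f2, Sox18 and Erg in sinusoidal, metaphyseal and arterial ECs of each library, drawn apart for Xist and Y-linked cells, with 95% Poisson intervals. The steps from the sinusoidal to the arterial gate of Sox17, Sox7, Mecom and Nr2f2 have the same direction in all 4 sets of cells.

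Other genes of the arterial and venous programmes give the scale for these ratios. Of 16 arterial genes measured and not used in the arterial and sinusoidal gates, 11 were past 2-fold higher in the arterial gate of the Control library and 0 lower (median log2 ratio 3.14), and in the Dach1OE library 12 were higher and 1 lower (median 3.05), where the median over all genes was −0.09 and −0.07. Gja5 (8.70 and 8.03) and the chemokine receptor gene Cxcr4 (6.92 and 6.86) had the largest ratios, of which Cxcr4 is a gate gene of tip-like ECs, and cells that met both the arterial and the tip-like gate were placed in the mixed gate. The smallest in the Control library were those of Hes1, a Notch target (0.06), and Alox12 (0.13), and in the Dach1OE library those of Hes1 (−1.16) and of the VEGF coreceptor gene Nrp1 (−0.03). Of 12 venous and sinusoidal genes 9 were lower and 1 higher in either library (medians −2.95 and −2.74), with Mrc1, the mannose receptor gene (−6.33 and −7.18), and Ackr1 (−5.71 and −6.42) lowest. Vwf (von Willebrand factor) went the other way, at 3.001 and 1.32, and stood highest, before the ephrin receptor gene Ephb4 in the Control (−0.23) and the angiopoietin receptor gene Tek in the Dach1OE library (−0.35). Both lymphatic genes measured, Flt4 (−3.15 and −3.58) and Mmrn1 (−5.51 and −3.41), were past 2-fold lower, as were 15.6% and 11.3% of all genes. Flt4 is also on the venous and sinusoidal list and is counted there as well, so its value is not a separate result for lymphatic genes.

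Further endothelial transcription factor genes had no common direction. Of 29 measured in the Control library 8 were past 2-fold higher and 5 lower in the arterial gate (median 0.10), and of 28 in the Dach1OE library 7 and 5 (median −0.09). The shares over all genes were 8.92% higher and 15.6% lower in the Control and 8.08% and 11.3% in the Dach1OE library. The counts of lower genes on this list are thus near those of all genes, and the counts of higher genes are above them. Tbx3 (4.16) and Sox11 (4.12) had the largest ratios in the Control library, and Sox11 (3.005) and Lmo2 (2.45) in the Dach1OE library. Maf was among the lowest in the Dach1OE library (−4.90). Nr2f1, the closest relative of Nr2f2, had 433 UMIs in the sinusoidal and 0 in the arterial gate of the Control library.

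Detection of the genes in the same cells differed by gate. With every EC thinned to 1000 UMIs, Sox17 was seen in 872 Control cells and Nr2f2 in 40.6% of them, against 50.3% of the 7732 cells without Sox17. In the Dach1OE library the shares were 19.96% of 1358 and 34.3% of 7473 cells. Inside the sinusoidal gate the shares with and without Sox17 lay closer together, at 59.0% and 58.7% in the Control and 50.8% and 47.8% in the Dach1OE library. Mecom was seen in 8.14% of cells with and 2.496% of cells without Sox17 in the Control library, and in 16.2% and 5.90% in the Dach1OE library. Within arterial ECs these shares were 34.0% and 43.5% in the Control and 32.5% and 29.0% in the Dach1OE library, without a common direction.

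Across 12 points (in each library the sinusoidal, metaphyseal, arterial, remodelling and proliferating gates and ungated ECs, leaving out the mixed gate and gates with under 50 cells in either library) the Pearson correlation of log2(CPM + 10) was −0.94 between Sox17 and Nr2f2, 0.80 between Sox17 and Mecom, 0.83 between Sox7 and Mecom and −0.87 between Nr2f2 and Mecom. Sox17 and Sox18 gave 0.33. These points share libraries and are not independent, so the values describe the gates only. Among 5487 genes with at least 50 CPM in some gate, those most like Sox17 were Tgfb2 (0.98), Sestd1 (0.98), Srebf2 (0.98), Pik3r3 (0.97) and Arhgef28 (0.97). Those most like Nr2f2 were Npr1 (0.98), Rab3il1 (0.97), Fam43a (0.97), Vamp5 (0.96) and Pros1 (0.96).

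Between the genotypes, Mecom, Sox7 and Sox17 were higher and Nr2f2 lower over all ECs of the Dach1OE library. Mecom stood at 34.2 CPM [32.1 to 36.4] in the Control and 85.4 CPM [82.1 to 88.8] in the Dach1OE library, a log2 ratio of 1.32 [1.21 to 1.43]. Sox7 stood at 39.9 CPM [37.6 to 42.2] and 88.1 CPM [84.7 to 91.5], a log2 ratio of 1.14 [1.04 to 1.24]. Sox17 stood at 105 CPM [101 to 109] and 197 CPM [192 to 202], a log2 ratio of 0.91 [0.85 to 0.97]. These 3 genes were past 1.5-fold higher, as were 8.55% of the 13632 genes with at least 50 UMIs in ECs. With endothelial subtypes weighted equally none of the 3 was past it, at 0.02 for Mecom, 0.55 for Sox7 and 0.41 for Sox17. The subtypes here were the sinusoidal, metaphyseal, arterial, remodelling and proliferating gates, with ungated ECs as a further one. The tip-like, lymphatic and mixed gates were left out, and the small remodelling gate weighed as much as the sinusoidal one. Nr2f2 stood at 793 CPM [783 to 804] and 449 CPM [441 to 456], a log2 ratio of −0.82 [−0.85 to −0.79], and was the only 1 of the 8 genes past 1.5-fold lower, as were 6.42% of all genes, with −0.59 under equal weights. The sum of 6 smooth muscle and pericyte markers moved with this comparison, from 127 to 222 CPM in all ECs, 80.2 to 142 in the sinusoidal and 150.3 to 244 in the arterial gate, and its part in the values, Nr2f2 being a gene of mural cells too, was not tested.

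The other genes stayed within 1.5-fold. Sox18 had 903 and 734 CPM (−0.30 [−0.32 to −0.27]), Erg 239 and 230.2 CPM (−0.06 [−0.10 to −0.01]) and Fli1 202 and 181 CPM (−0.16 [−0.21 to −0.10]). Prox1 had 8.41 and 7.27 CPM, and its interval took in 0 (−0.21 [−0.48 to 0.06]). Taken apart by sex, the log2 ratios of Xist and Y-linked cells were 1.27 and 1.60 for Mecom, 1.08 and 1.34 for Sox7 and 0.75 and 1.15 for Sox17. The median log2 ratio was −0.11 over the 8 genes and 0.04 over all genes.

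Shares of ECs with a UMI gave the same directions for 7 of the 8 genes, and for Prox1, seen in 0.744% and 0.759% of thinned ECs, the opposite one, with intervals that overlapped on both measures. After thinning to 1000 UMIs, with 188 and 269 shallower cells left out, Sox17 was seen in 10.1% [9.50 to 10.8] of Control and 15.4% [14.6 to 16.1] of Dach1OE ECs, and Nr2f2 in 49.3% [48.3 to 50.4] and 32.1% [31.1 to 33.1]. For Sox7 the shares were 3.87% and 7.42%, and for Mecom 3.07% and 7.49%. Without thinning they were 24.02% and 32.6% for Sox17, 74.9% and 54.8% for Nr2f2, 10.7% and 18.4% for Sox7 and 6.90% and 16.6% for Mecom. In chondrocytes, which should lack these genes and had a median of 9683 and 9394 UMIs before thinning, the thinned shares were 0.222% and 0.169% for Sox17 and 0.555% and 0.410% for Nr2f2, the level of background. Erg and Fli1 were seen in 21.1% and 18.01% of Control and 20.1% and 16.7% of Dach1OE ECs, and Sox18 in 56.4% and 49.4%.

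**Figure D3:**
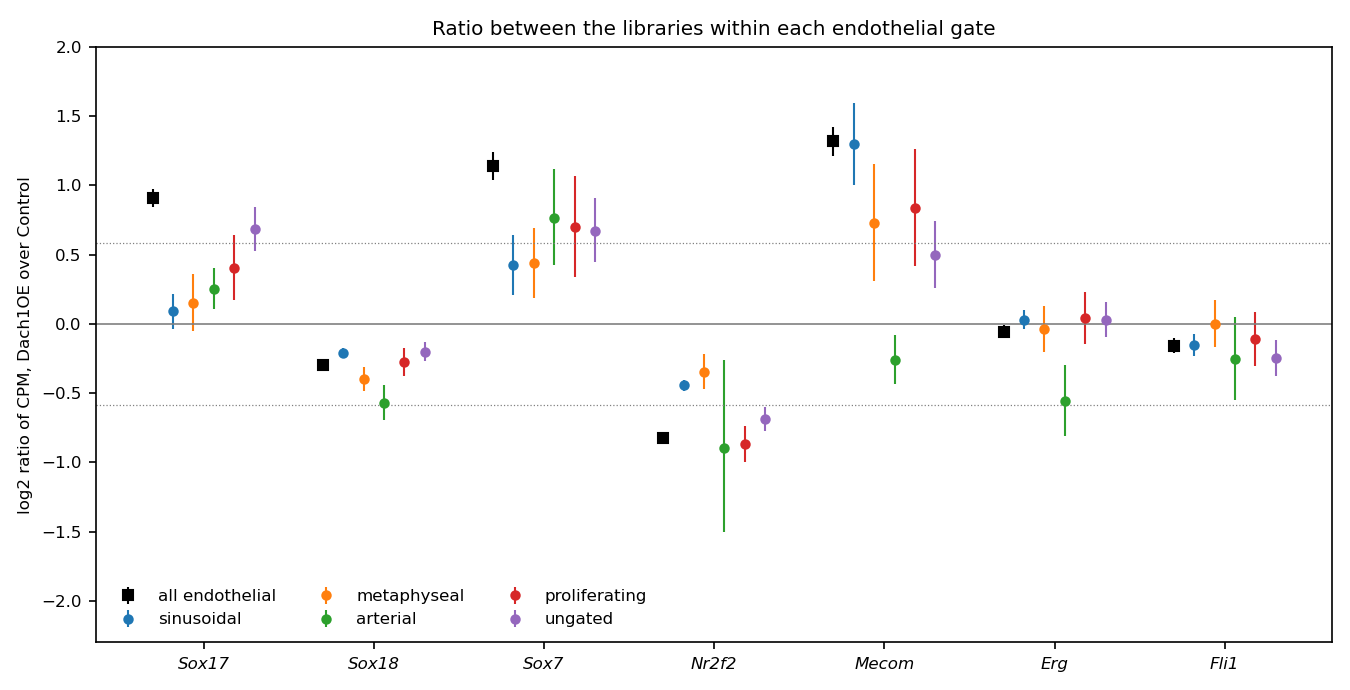
Log2 ratio of Dach1OE over Control CPM for 7 genes in all ECs and within the sinusoidal, metaphyseal, arterial and proliferating gates and ungated ECs, with 95% counting intervals and dotted lines at 1.5-fold. Nr2f2 and Sox18 lie below 0 and Sox7 above 0 in each gate shown, whereas Mecom lies above 0 in all but the arterial gate.

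Within gates the differences between the libraries varied from gene to gene. Other genes of the sinusoidal gate differed as well. Scgb3a1, a marker gene of another kind of capillary EC, stood at 18.7 CPM in the Control and 779 CPM in the Dach1OE library. Madcam1 had 15.1 and 127 CPM, Cxadr 123 and 47.0 CPM and Mrc1 697 and 438 CPM. Whether a gate held the same kinds of cell in both libraries was not tested. Sox17 had log2 ratios of 0.09 [−0.03 to 0.21] in sinusoidal, 0.15 [−0.05 to 0.36] in metaphyseal and 0.25 [0.10 to 0.40] in arterial ECs, so that the first pair of intervals took in 0. In proliferating and ungated ECs it was 0.41 [0.17 to 0.64] and 0.68 [0.52 to 0.84]. Remodelling ECs gave 1.84 [0.86 to 2.86] on 15 and 26 UMIs.

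Sox7 was higher in the Dach1OE library within each of the 3 large gates, with 0.43 [0.21 to 0.64] in sinusoidal, 0.44 [0.19 to 0.69] in metaphyseal and 0.77 [0.43 to 1.12] in arterial ECs. Tip-like ECs gave 0.92 [0.19 to 1.73]. Sox18 was lower by the same comparison, at −0.21 [−0.25 to −0.17], −0.40 [−0.48 to −0.31] and −0.57 [−0.69 to −0.44] in sinusoidal, metaphyseal and arterial ECs and −0.92 [−1.29 to −0.54] in tip-like ECs. Sox7 and Sox18 thus stood on opposite sides of 0 in these gates. In remodelling ECs both intervals took in 0, at 0.20 [−0.69 to 1.05] for Sox7 and 0.16 [−0.25 to 0.57] for Sox18.

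Nr2f2 was lower within each gate with over 50 cells. Sinusoidal ECs gave −0.44 [−0.48 to −0.40], metaphyseal ECs −0.34 [−0.47 to −0.22] and arterial ECs −0.89 [−1.50 to −0.26], the last on 34 and 70 UMIs. Proliferating ECs gave −0.87 [−0.99 to −0.74], ungated ECs −0.68 [−0.77 to −0.60] and remodelling ECs −0.70 [−1.14 to −0.29]. In all ECs the log2 ratio was below 0 in cells of both sexes, at −0.71 in Xist and −0.95 in Y-linked cells.

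Mecom was higher in sinusoidal, metaphyseal, proliferating and ungated ECs of the Dach1OE library and lower in arterial ECs. Sinusoidal ECs gave 1.30 [1.004 to 1.60], metaphyseal ECs 0.73 [0.31 to 1.15] and proliferating ECs 0.83 [0.42 to 1.26], with 0.50 [0.26 to 0.74] in ungated ECs. Tip-like ECs gave −0.02 [−0.89 to 0.96]. Arterial ECs, which have most Mecom RNA, gave −0.26 [−0.44 to −0.08]. Taken by sex, arterial levels were 479.8 and 386 CPM in Xist cells (−0.31 [−0.63 to 0.01]) and 551 and 413 CPM in Y-linked cells (−0.42 [−0.78 to −0.04]). Sinusoidal levels were 8.04 and 21.5 CPM in Xist and 9.19 and 20.04 CPM in Y-linked cells. Both sexes showed both directions, and the interval of the arterial ratio in Xist cells reached 0.01.

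Erg had intervals that took in 0 in sinusoidal (0.03 [−0.04 to 0.10]) and metaphyseal ECs (−0.04 [−0.20 to 0.13]) and was lower in arterial ECs of the Dach1OE library (−0.56 [−0.81 to −0.30]). Fli1 gave −0.15 [−0.23 to −0.07], 0.00 [−0.17 to 0.17] and −0.25 [−0.55 to 0.05] in these gates. Prox1 in the lymphatic gate gave 0.31 [−0.61 to 1.15], too wide an interval for a direction.

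How far the gate proportions alone would move each gene was computed by giving one library the proportions of the other. Sinusoidal ECs held 61.9% of endothelial UMIs in the Control and 37.1% in the Dach1OE library, arterial ECs 2.37% and 8.91%, metaphyseal ECs 8.21% and 10.5% and ungated ECs 11.3% and 21.9%. With Control levels in each gate and Dach1OE proportions, the log2 ratio to the Control library would be 1.12 for Mecom, 0.55 for Sox17, 0.47 for Sox7 and −0.28 for Nr2f2, where the observed values were 1.32, 0.91, 1.14 and −0.82. With Dach1OE levels and Control proportions it would be 0.53 for Mecom, 0.32 for Sox17, 0.60 for Sox7 and −0.49 for Nr2f2. For Sox18 the value was −0.01 with Dach1OE proportions and −0.24 with Dach1OE levels, where the observed one was −0.30. The proportions depend on gate genes that differ between the libraries, such as Adgrg6, so this divides the observed ratios by gate and does not count vessels. Fewer cells of a kind and a cell crossing a gate boundary cannot be told apart here.

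**Figure D4:**
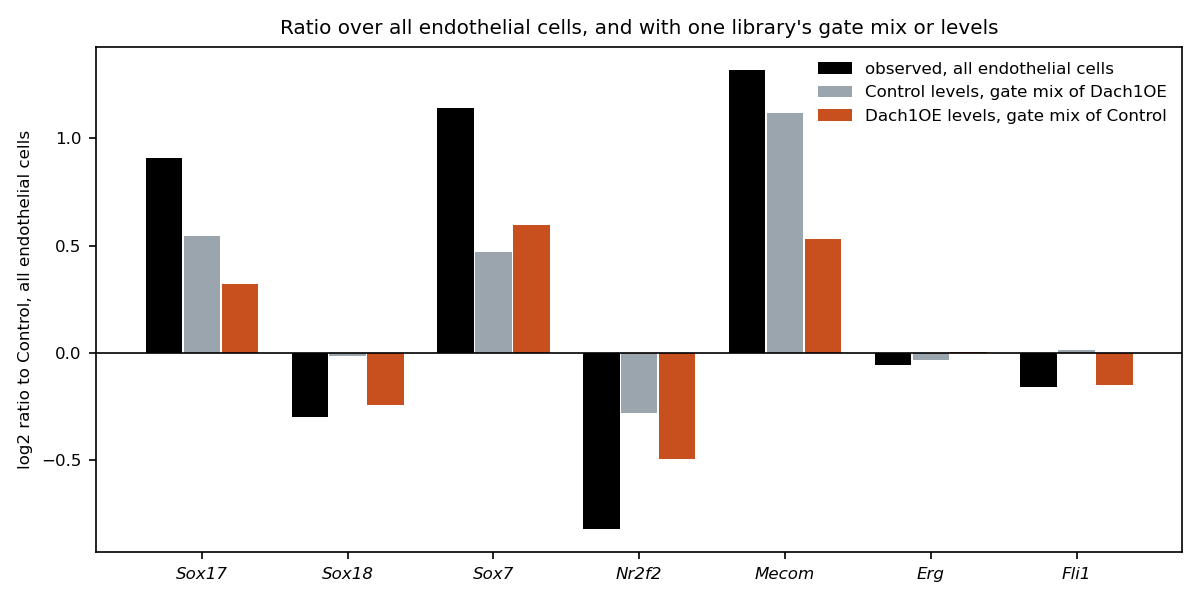
Log2 ratio to Control for each of the 8 genes except Prox1 over all ECs, as observed, with Control levels and Dach1OE gate proportions, and with Dach1OE levels and Control gate proportions. For Mecom the values are 1.32 observed, 1.12 with Dach1OE proportions and 0.53 with Dach1OE levels, and for Nr2f2 −0.82, −0.28 and −0.49. The last 2 do not add up to the first, so neither is a share of it.

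Within the Dach1OE library, ECs with a Dach1 UMI were set beside ECs without one, all thinned to 1000 UMIs (1524 and 7307 cells). Sox7 was higher in cells with Dach1 (0.57 [0.32 to 0.81]), Nr2f2 lower (−0.35 [−0.47 to −0.22]) and Fli1 higher (0.25 [0.07 to 0.42]). The intervals of Sox17 (0.07 [−0.11 to 0.25]), Mecom (0.25 [−0.01 to 0.50]), Sox18 (0.01 [−0.08 to 0.10]) and Erg (0.13 [−0.04 to 0.29]) took in 0. In the sinusoidal gate alone (534 and 2788 cells) Nr2f2 gave −0.34 [−0.52 to −0.18], near the value of all ECs, and Sox7 0.25 [−0.67 to 1.07]. Metaphyseal ECs gave 1.08 [0.35 to 1.78] for Sox7, on 24 and 66 UMIs. A cell without a Dach1 UMI may still express the gene at this depth.

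**Figure D5:**
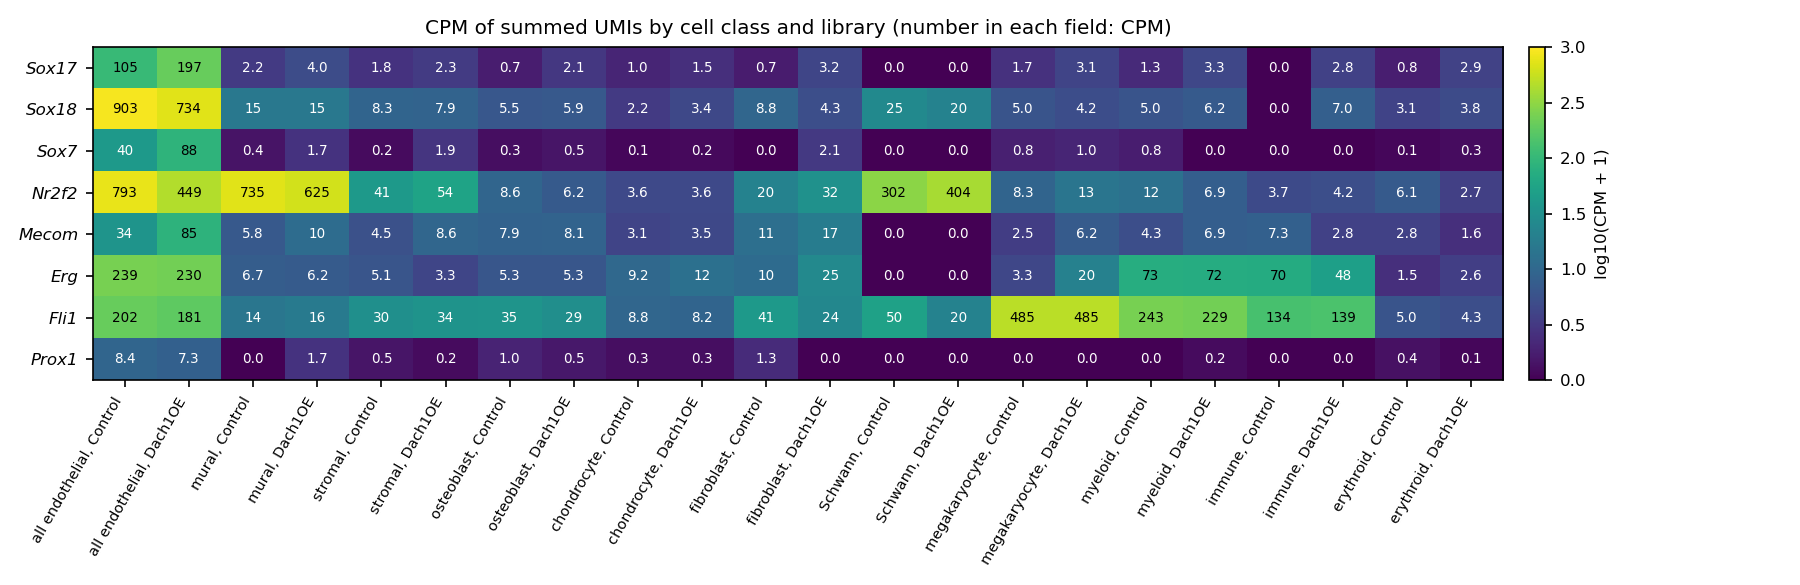
CPM of each of the 8 genes in all ECs and 10 other cell classes of the Control and Dach1OE libraries, to be read along a row since levels are not comparable between genes. Sox17, Sox18, Sox7 and Mecom are highest in ECs, Nr2f2 is also high in mural cells, and Fli1 and Erg are also found in blood cell classes.

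Outside the endothelium 3 of the 8 genes had a second site. Nr2f2 stood at 735 and 625 CPM in mural cells (smooth muscle and pericytes), where it was seen in 47.2% and 40.8% of thinned cells, and at 302 and 404 CPM in Schwann cells, against 40.6 and 53.98 CPM in stromal cells. Fli1 stood at 485 and 485 CPM in megakaryocytes, which need it to mature, and at 243 and 229 CPM in myeloid cells. Erg had 73.4 and 71.8 CPM in myeloid and 69.6 and 47.9 CPM in other immune cells. Blood cells had been depleted before sequencing, so these classes hold the cells that escaped. Sox17 reached at most 3.96 CPM, Sox7 at most 2.14 CPM and Mecom at most 17.1 CPM in any non-endothelial class of either library. The 17.1 CPM were those of Dach1OE fibroblasts (16 UMIs).

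The gene lists showed the surroundings of these differences over all ECs. Of 22 arterial genes 12 were past 1.5-fold higher and 0 lower in the Dach1OE library (median log2 ratio 0.65), led by Clu, the clusterin gene (32.5 and 298 CPM, 3.19 [3.10 to 3.29]), and Gja5 (23.8 and 133 CPM, 2.49 [2.37 to 2.60]), with Bmx (−0.14) and Alox12 (−0.04) at the low end. Of 18 venous and sinusoidal genes 1 was higher and 10 lower (median −0.87). Over all genes 8.55% were past 1.5-fold higher and 6.42% lower. The lowest were the adhesion receptor gene Adgrg6 (−1.65 [−1.73 to −1.57]) and the cytokine receptor gene Il6st (−1.61 [−1.64 to −1.58]), and the highest Vwf (2.64 [2.55 to 2.73]) and Ephb4 (−0.03 [−0.06 to 0.01]). Adgrg6 is also a gate gene of sinusoidal ECs, and Bmx of arterial ECs.

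Of 30 further transcription factor genes measured, 3 were higher and 3 lower, with a median of 0.04, which is near the shares of 8.55% and 6.42% over all genes. Tbx3 had 5.20 and 25.6 CPM (2.30 [2.05 to 2.56]) and Foxc2, a factor of lymphatic valves, 20.1 and 50.1 CPM (1.31 [1.18 to 1.46]). At the low end Nr2f1 had 18.5 and 4.61 CPM (−2.01 [−2.29 to −1.73]) and Meis2 6.43 and 2.46 CPM (−1.39 [−1.80 to −0.99]). Nr2f1 and its relative Nr2f2 were thus both lower, while Nr2f6, a further relative on the list, is not reported here. Of 6 lymphatic genes 5 were past 1.5-fold lower (median −0.97), with Mmrn1 (−1.90) and Reln (−1.08) lowest and Flt4 (−0.56) and Pdpn (−0.70) highest, while 6.42% of all genes were past 1.5-fold lower. All but Flt4 of these 6 are gate genes of lymphatic ECs, and Flt4 is also on the venous and sinusoidal list. Lymphatic ECs held 0.273% of endothelial UMIs in the Control and 0.0541% in the Dach1OE library, and the part of these cells in the list was not tested.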

How the data were processed

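The deposited tables hold counts per cell and gene, made by the authors with the BD Rhapsody analysis pipeline (version 1.11 per the file headers, another version in the methods), GRCm38 and GENCODE vM19. Intronic reads were counted, and whether strand was used is not given in the sources used here. UMI counts after error correction (RSEC) were used as deposited, 143986818 in Control and 166999989 in Dach1OE.

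The 8 genes and the gene lists were chosen with earlier results of these data known. Gate thresholds were settled after the numbers of detected markers per cell had been looked at: 3 of 6 markers for sinusoidal, 2 of 4 for metaphyseal, 3 of 5 for arterial, 2 of 3 for remodelling and for tip-like, 2 of 5 for proliferating and 3 of 5 for lymphatic. ECs that met several gates formed the mixed gate, except that proliferating took precedence. Another class was given to cells with under 3 endothelial markers and markers of a single class. No doublets were removed. Scrublet (scanpy 1.11.5) marked 1.97% of ECs in either library, and leaving them out was an alternative.

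UMIs were summed per library and gate and divided by the total of the same cells. Genes named were the 8 genes, the 5 most correlated with Sox17 and with Nr2f2, the 2 largest and 2 smallest of each list, and Dach1. Some values that this rule names are not reported here. Calls by size used 1.5-fold between libraries and 2-fold between gates. The scripts were tested on simulated data. Versions were Python 3.11.15, numpy 2.4.6, scipy 1.17.1, pandas 2.3.3, R 4.3.3 and edgeR 4.0.16, used for the TMM scaling alternative only.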

Additional observations from a re-analysis of the deposited data

Results flagged for a closer look

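Mecom was singled out because the difference between the genotypes had one sign in arterial ECs and the opposite sign in the other large gates and in ungated ECs. The log2 ratio of Dach1OE over Control was −0.26 in the arterial gate and 1.30 in the sinusoidal, 0.73 in the metaphyseal, 0.83 in the proliferating gate and 0.50 in ungated ECs. The sinusoidal value compares low levels, 8.90 and 21.9 CPM, with Mecom seen in 0.927% and 2.32% of thinned cells. Arterial genes held out as checks moved in this gate too. Gja5 (1.55 and 3.81 CPM), Hey1 (1.77 and 5.90) and Clu (13.1 and 38.1) were higher in the Dach1OE library. Efnb2 (22.3 and 17.1) was lower. The part of arterial RNA in the sinusoidal values was not tested. With 1 library per genotype the difference between the gates was not tested.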

How the results depend on the processing

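No paired analysis was possible because each group has 1 library. The count of 4 genes past 1.5-fold over all ECs stayed 4 under 12 of 15 alternatives (unadjusted UMIs, other filters of cells, stricter or looser gates, a minimum of 20 UMIs, TMM scaling, equal weight per cell, thinning, Scrublet, cells of either sex). Of these, the looser gates and the minimum of 20 UMIs could not change it by construction. The count was 1 with endothelial subtypes weighted equally (Nr2f2), 1 with the gate mix of Control in both libraries (Sox7) and 1 in the sinusoidal gate alone (Mecom), of which the last 2 were added after seeing the data. Over 14 alternatives the log2 ratio ran from 0.09 to 1.15 for Sox17, 0.43 to 1.34 for Sox7, 0.02 to 1.60 for Mecom, −0.95 to −0.44 for Nr2f2, −0.34 to −0.21 for Sox18 and −0.20 to −0.02 for Fli1, without a change of sign. Erg kept its sign in 11 of 14 and Prox1 in 12 of 14. The arterial to sinusoidal direction of Sox17, Sox7, Mecom and Nr2f2 held in 11 of 11 alternatives in both libraries, and the 5 genes past 2-fold were 4 or 5 under 12 alternatives. That of Prox1 in the Control library turned to 0.87 in Y-linked cells, where it rests on 1 arterial UMI. Those of Sox18 and Erg there turned from 0.14 to −0.03 and from 0.02 to −0.31 in the same cells. Prox1, and members of the tip-like, remodelling and lymphatic gates, are limited by UMI numbers.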
